A study of Mus musculus with 74 samples.

Results

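The comparison described here sets stimulated mouse T cell hybridoma cells that carry the construct called HDAC7 DP against the same cells carrying the empty retrovirus. Its members were all arrays whose source names give PMA and ionomycin for 2.5 h, 16 of the 74 arrays of the series, with 8 for HDAC7 DP and 8 for the empty MSCV virus. Both groups are DO11.10 T cell hybridoma cells, an established line that recognises an ovalbumin peptide, transduced with MSCV (a murine stem cell retroviral vector). Both were treated with PMA and ionomycin for the same time, and both were hybridised against untreated hybridoma cells in the other colour. What DP stands for, how cells with the construct were selected, how many cultures were grown and which promoter drives the insert could not be read from the labels.

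HDAC7 is a class IIa histone deacetylase. Enzymes of this class have little deacetylase activity of their own. They are brought to DNA by MEF2 transcription factors, where they hold MEF2 target genes silent, and T cell receptor signals lead to their phosphorylation and export from the nucleus. Nr4a1, which encodes the orphan nuclear receptor Nur77, is a textbook MEF2 target in thymocytes. PMA activates protein kinase C and Ras signalling and ionomycin raises calcium, so that together they mimic a T cell receptor signal without the receptor.

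Each value is a log2 ratio of stimulated transduced cells over untreated cells on 1 array, here called the level, and the contrast is a log2 difference of these levels, HDAC7 DP minus empty virus. The ratios were taken to run in that direction because Nr4a1, Egr1, Egr2 and Il2, which stimulation induces, were above 0 on all 16 arrays in both dye orientations. That direction and the log base are therefore likely, not stated. All 120 pairwise correlations between the 16 arrays over 16463 probes were positive (lowest 0.000416, median 0.409, highest 0.804). Slide numbers divide each group into 2 sets of 4 arrays, slides 13-14 and 15-16 for the empty virus and 17-18 and 19-20 for HDAC7 DP. Each set occurs under the title prefixes 14 and 15 (slide series), and each construct, series and set holds both dye orientations in equal number. Nothing in the labels ties single arrays to separate cultures, so p-values here reflect array-to-array spread, part or all of which may be technical.

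The Hdac7 probe, which reports on the construct's own gene, separated the constructs on only part of the arrays. On the 4 arrays labelled HDAC7 DP of series 15 it stood at 3.81, 4.81, 3.41 and 3.99 over untreated cells. On the 4 of series 14 it stood at 0.04, 0.46, -0.015 and 0.215, and 3 of these lay within the range of the 8 empty-virus arrays, which ran from -0.87 to 0.235 (median -0.16). All 4 series 15 arrays labelled HDAC7 DP thus lay above every empty-virus array, but 1 of the 4 in series 14 did, and what the probe covers of the construct is not stated in the labels. Over all arrays the difference was 2.31 (SE 0.69, limma adjusted p = 0.127). In 1 fit of all 11 groups of the series the same difference was called (adjusted p = 9.50e-06), and in series 15 alone it was 4.45 (adjusted p = 0.00116). The fit of 11 groups pools their spread, so its p does not measure the spread of the HDAC7 DP arrays. Their SD on this probe was 2.09, beside 0.34 for the empty virus. HDAC7 DP below means the arrays labelled so, and differences between the series are given further on.

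More genes were lower than higher with HDAC7 DP, and most of those that fell at least 2-fold were genes that stood above untreated cells in stimulated empty-virus cells. In limma with Benjamini-Hochberg adjustment, 271 of 16463 probes were called (1.65% of those tested, adjusted p under 0.05), 185 of them lower (1.12%) and 86 higher (0.522%). A difference of at least 2-fold was reached by 59 called probes (0.358%), 50 lower and 9 higher. Of these 50 probes, 37 stood above 0.5 in the empty-virus mean. With HDAC7 DP, 23 of those 37 lay within 0.5 of untreated cells, 9 were still above 0.5 and 5 had gone below -0.5. The other 13 of the 50 were not induced in empty-virus cells, 10 being within 0.5 of untreated and 3 below -0.5, and all 13 were below -0.5 with HDAC7 DP. Of all 185 probes called lower, 64 stood above 0.5 in the empty-virus mean, 105 within 0.5 of untreated cells and 16 below -0.5. The empty-virus mean is part of the difference by which the 50 were picked, so a high level there is partly built in. In bulk RNA, fewer cells responding and less RNA per cell cannot be told apart.

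**Figure D1:**
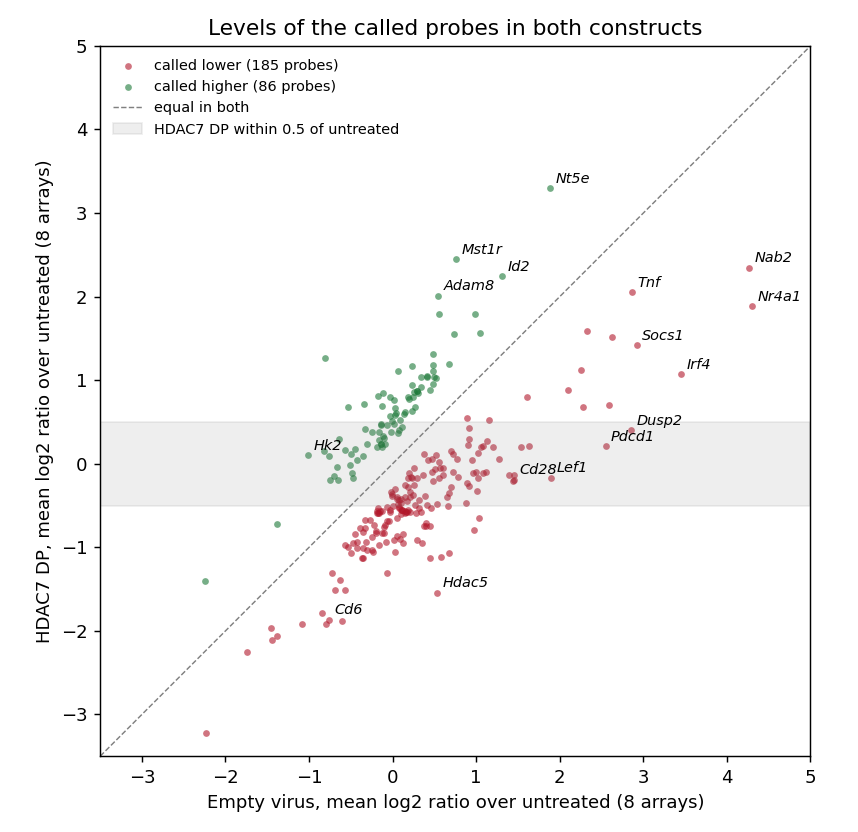
Mean log2 ratio over untreated cells of each of the 271 called probes, with the empty virus on the horizontal axis and HDAC7 DP on the vertical axis (8 arrays each). Red points are the 185 called lower and green points the 86 called higher. The grey band marks HDAC7 DP means within 0.5 of untreated cells, and strongly induced genes such as Nr4a1, Nab2 and Irf4 lie below the diagonal but above the band.

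The number of calls depended on how arrays were counted. With the slide set as a random block (duplicateCorrelation, estimated correlation 0.162) limma called 110 probes, all of them among the 271. It kept 37 of 54 calls of named genes, and beside each of the other 17 the adjusted p with this block is given. With the 4 arrays of each set averaged first it called 0 (622 at an unadjusted p under 0.05, from 2 values a group). The excess of lower calls turned without slides 13-14, where 1024 of 1528 called probes were higher, and with the slide set as a fixed term (added after seeing the data), where 713 of 1227 were higher.

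The counts of each gene list from here on stand beside 1.12% of all 16463 probes called lower and 0.522% called higher. Among the class IIa deacetylase and MEF2 genes 6 were measured, 1 fell and 0 rose, with a median difference of 0.03 beside 0.00 over all 16463 probes. The member that fell was Hdac5, another class IIa deacetylase. Its levels ran from -0.23 to 1.38 with the empty virus (median 0.42) and from -2.41 to -0.51 with HDAC7 DP (median -1.51). All HDAC7 DP arrays were thus below every empty-virus array and below untreated cells. The difference was -2.08 (SE 0.28, limma adjusted p = 0.000570, 4.22-fold). The 4 members not called apart from Hdac7 had differences near 0, with Mef2d at 0.04 (SE 0.13), Hdac9 at 0.05 (SE 0.09), Mef2b at 0.02 (SE 0.25) and Mef2c at 0.01 (SE 0.10). Of 8 other deacetylases and corepressors of class IIa enzymes, limma called 0 (1 at an unadjusted p under 0.05), and their differences ran from -0.30 to 0.27.

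The NR4A receptors, the EGR zinc-finger factors and their NAB corepressors are early products of T cell receptor signalling. Of 9 measured, 3 fell and 0 rose, and the median difference was -0.62. Nr4a1 stood between 3.09 and 5.52 with the empty virus (median 4.36) and between 0.62 and 3.30 with HDAC7 DP (median 1.63). The ranges met, because the 2 highest HDAC7 DP arrays, slides 17 and 18 of series 15, lay above the lowest empty-virus array. The difference was -2.41 (SE 0.45, limma adjusted p = 0.00939), and it was called in each of the 16 fits without 1 array. It was not called without slides 15-16 (-1.78), without slides 19-20 (-1.50) or in either slide series alone. Nab2, a corepressor of EGR factors, stood between 3.48 and 5.36 (median 4.13) with the empty virus and between 1.61 and 3.14 (median 2.34) with HDAC7 DP, with no overlap. It fell by 1.92 (SE 0.32, adjusted p = 0.00303) and, like Nr4a1, remained above untreated cells on all 8 HDAC7 DP arrays. Nab1 fell by 0.98 (SE 0.22, adjusted p = 0.0334), from levels of -0.12 to 1.46 to levels of -0.85 to 0.03, and lost its call in 9 of the 16 fits without 1 array (-1.11 to -0.87) and with the random block (adjusted p = 0.107).

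The EGR genes were not called. Egr1 stood between 1.74 and 4.20 (median 3.16) with the empty virus and between 2.05 and 4.53 (median 3.51) with HDAC7 DP. Both groups stood above untreated cells on every array and overlapped widely, and the difference was 0.35 (SE 0.46, limma adjusted p = 0.835). Egr2 differed by -0.81 (SE 0.54, adjusted p = 0.622) and was called only in the fit without slides 13-14 (-1.88, adjusted p = 0.0368). Egr3 differed by -0.15 and Egr4 by 0.12. Of the other NR4A receptors, Nr4a3 differed by -0.62 (SE 0.27, adjusted p = 0.357) and Nr4a2 by -0.15 (SE 0.09). Il2, the gene of the T cell growth factor interleukin 2, ran from 0.60 to 5.40 with the empty virus and from 0.62 to 4.29 with HDAC7 DP, and its difference of -0.36 (SE 0.76, adjusted p = 0.903) was smaller than its own SE.

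Of 25 AP-1 and other immediate early genes, 2 fell and 0 rose, with a median of -0.32. Arc, an activity-regulated cytoskeletal gene, stood between 1.49 and 3.41 (median 2.67) with the empty virus and between 0.10 and 1.502 (median 0.67) with HDAC7 DP. The groups touched by 0.01, and Arc fell by 1.90 (SE 0.29, limma adjusted p = 0.00156). Atf3, a stress-induced bZIP factor, fell by 0.90 (SE 0.16, adjusted p = 0.00646), from a mean of 0.95 to a mean of 0.04. Of 9 dual-specificity phosphatases, which switch off MAP kinases, 2 fell and 0 rose (median 0.01). Dusp2 had the largest fall of all probes, -2.45 (SE 0.57, adjusted p = 0.0369), with levels from 1.41 to 4.58 (median 2.73) with the empty virus and from -1.19 to 2.50 (median 0.25) with HDAC7 DP. Its highest HDAC7 DP array, slide 17 of series 15, lay above the 4 empty-virus arrays of slides 13-14, and its call was lost in 10 of the 16 fits without 1 array (-2.75 to -2.21) and with the set as a random block (adjusted p = 0.109). Dusp10 kept its call in all 16 of these fits and fell by 1.20 (SE 0.15, adjusted p = 0.000314), from a mean of 0.29 to -0.91.

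**Figure D2:**
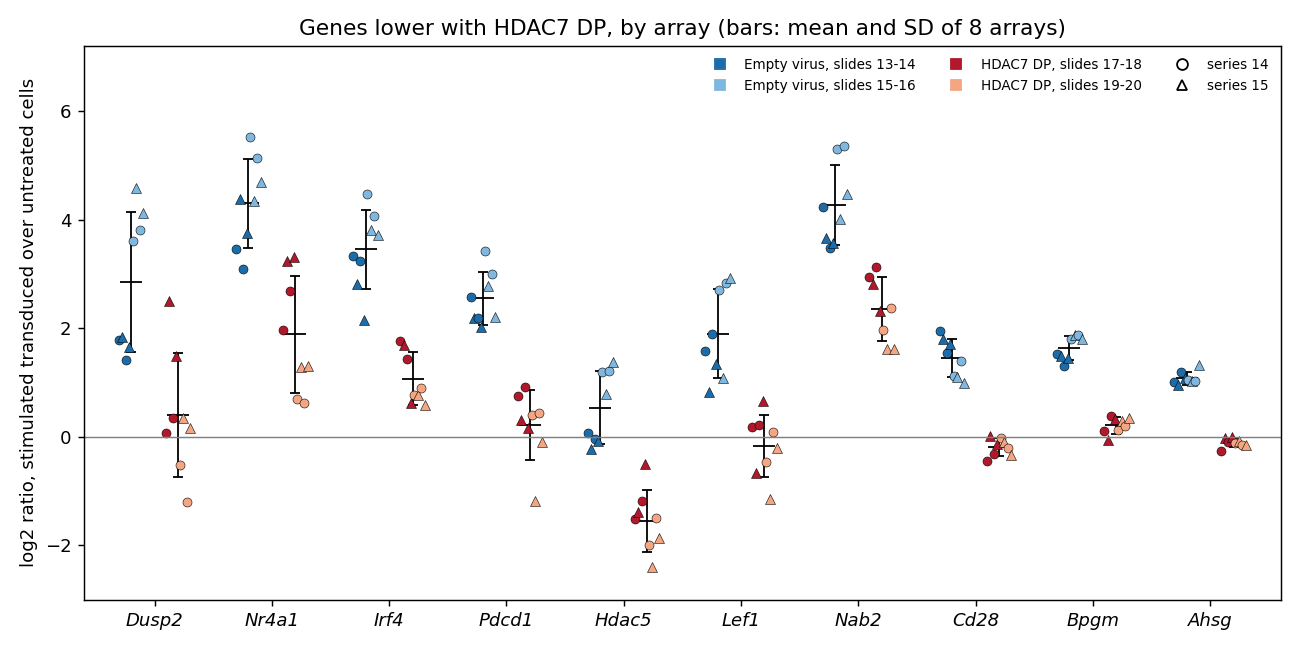
Log2 ratio over untreated cells on each array for 10 genes that fell with HDAC7 DP, dark and light blue for the empty virus (slides 13-14 and 15-16), red and light orange for HDAC7 DP (slides 17-18 and 19-20), and circles for series 14 and triangles for series 15. Black bars give the mean and SD of 8 arrays. Pdcd1, Cd28, Bpgm and Ahsg show a clear gap between the groups, while Dusp2 and Nr4a1 overlap.

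The CD28 family and other costimulatory and inhibitory receptors included Pdcd1 and Cd28, whose groups had the widest gaps of all probes with 1 gene symbol. Of 20 measured, 5 fell and 0 rose (median -0.11), and 4 of the 20 did not overlap between the groups, against 102 of all 16463 probes (0.62%). Pdcd1, the gene of the inhibitory receptor PD-1, ran from 2.02 to 3.42 (median 2.39) with the empty virus and from -1.17 to 0.91 (median 0.35) with HDAC7 DP. The gap between the groups was 1.11 and the difference was -2.34 (SE 0.27, limma adjusted p = 0.000118). Pdcd1 thus stood well above untreated cells on all 8 empty-virus arrays, while with HDAC7 DP its mean of 0.21 was not called against untreated cells (limma adjusted p = 0.535). Cd28, the main costimulatory receptor of T cells, ran from 0.99 to 1.95 (median 1.47) and from -0.45 to 0.02 (median -0.17). It fell by 1.64 (SE 0.14, adjusted p = 7.11e-06), to a mean of -0.19 that was not called against untreated cells (adjusted p = 0.0721). Cd6, a receptor that modulates T cell receptor signals, followed another course: it was below untreated cells with the empty virus (-1.12 to -0.33) and lower still with HDAC7 DP (-2.20 to -1.17), a fall of 1.11 (SE 0.15, adjusted p = 0.000564). Cd24a, a surface glycoprotein of immature thymocytes, fell by 1.13 (SE 0.25, adjusted p = 0.0332), but its groups overlapped and its call was lost in 8 of 16 fits without 1 array (-1.23 to -0.93) and with the random block (adjusted p = 0.219). With HDAC7 DP its Cy5 arrays stood at 1.09 to 2.20 and its Cy3 arrays at -0.82 to 1.08, and its call was also lost with no dye term. The fifth was Cd27, a receptor of the TNF receptor family, named after its value was seen, which fell by 0.76 (SE 0.10, adjusted p = 0.000534) from a mean of -0.37 to -1.13, with groups parted by 0.18.

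Of 27 transcription factors of thymocyte lineage and maturation, 8 fell and 1 rose (median -0.14), and 5 of the 27 did not overlap between the groups. Over all 16463 probes 1.12% fell, 0.522% rose and 0.62% did not overlap. Irf4, an interferon regulatory factor induced in proportion to T cell receptor signal, ran from 2.16 to 4.48 (median 3.52) with the empty virus and from 0.59 to 1.77 (median 0.84) with HDAC7 DP. No array of one group reached the other, and Irf4 fell by 2.38 (SE 0.28, limma adjusted p = 0.000164) while staying above untreated cells. Its relative Irf8 ran from 0.07 to 1.92 (median 0.86) and from -1.19 to -0.30 (median -0.84), so that it went from above to below untreated cells. Irf8 fell by 1.77 (SE 0.27, adjusted p = 0.00171). Lef1, a partner of beta-catenin in thymocytes, ran from 0.83 to 2.92 (median 1.73) and from -1.14 to 0.66 (median -0.05), and fell by 2.07 (SE 0.28, adjusted p = 0.000646). Bhlhe40, an activation-induced repressor, fell by 1.21 (SE 0.17, adjusted p = 0.000775) and its groups were parted by 0.02. The member that rose was Id2, an inhibitor of E proteins, at 0.94 (SE 0.23, adjusted p = 0.0462), from levels of 0.46 to 2.30 to levels of 1.81 to 2.98. Its call was lost in 14 of the 16 fits without 1 array (0.80 to 1.08) and with the random block (adjusted p = 0.257).

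Among 14 ligands of the TNF superfamily 3 fell and 0 rose (median -0.18). Lymphotoxin genes Lta and Ltb fell by the same 1.59 (SE 0.28, limma adjusted p = 0.00536, and SE 0.25, adjusted p = 0.00240), with no overlap between the groups. Lta kept part of its induction, at 0.36 to 1.13 with HDAC7 DP against 1.28 to 3.17, while Ltb stood at -0.77 to 0.28 against 0.72 to 2.31. Tnf fell less, by 0.81 (SE 0.18, adjusted p = 0.0285), and with HDAC7 DP still stood between 1.07 and 2.58, a mean of 2.05 beside 2.87. Its call was lost in 6 of the 16 fits without 1 array (-0.87 to -0.70) and with the random block (adjusted p = 0.0973). Of 22 cytokines and cytokine receptors 2 fell and 0 rose (median -0.09). Socs1, the feedback inhibitor of JAK kinases, ran from 2.42 to 3.55 (median 2.89) with the empty virus and from 0.79 to 2.32 (median 1.32) with HDAC7 DP, a 2.83-fold fall (log2 SE 0.17, adjusted p = 8.51e-05) with a gap of 0.10. With HDAC7 DP the Cy5 arrays of Socs1 stood at 1.56 to 2.32 and its Cy3 arrays at 0.79 to 1.08. Its difference on Cy5 arrays alone was -1.15 and not called, while its call was kept on Cy3 arrays alone. Ifngr2, a chain of the interferon gamma receptor, fell by 0.99 (SE 0.21, adjusted p = 0.0205), with overlapping groups, and was not called without slide 20 of series 14 (-0.93) or with the random block (adjusted p = 0.176). Of 15 chemokine genes 1 fell, the receptor gene Ccr8 at -1.16 (SE 0.24, adjusted p = 0.0185), and 0 rose.

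Signalling genes upstream and downstream of calcium showed few calls. Of 23 proximal T cell receptor signalling genes 1 fell and 0 rose (median -0.03). This was Zap70, the kinase recruited to the receptor, whose levels of 0.20 to 1.80 (median 0.76) became -1.13 to 0.24 (median -0.19), a fall of 1.18 (SE 0.22, limma adjusted p = 0.00869) with ranges meeting by 0.04. Of 13 calcineurin, NFAT and calcium genes 1 fell, the calcium-binding protein gene Cabp1 by 0.52 (SE 0.10, adjusted p = 0.0148, and 0.0729 with the random block), and 0 rose. Of 15 NF-kB subunits and feedback genes limma called 0 (4 at an unadjusted p under 0.05), and their differences ran from -0.87 to 0.26 with a median of -0.28. Of 26 apoptosis genes 2 fell and 0 rose. Gadd45b, a stress gene that blocks JNK signalling, fell by 1.12 (SE 0.23, adjusted p = 0.0181) from a mean of 2.63 to 1.51, and was not called with the random block (adjusted p = 0.113). Bbc3, the gene of the BH3-only protein Puma, fell by 0.45 (SE 0.11, adjusted p = 0.0470), and was not called in 11 of the 16 fits without 1 array (-0.51 to -0.41) or with the random block (adjusted p = 0.181).

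Several of the largest or cleanest falls were in genes outside these groups. Kcnmb4, a regulatory subunit of calcium-activated potassium channels, ran from 0.07 to 1.34 (median 0.68) with the empty virus and from -1.92 to -0.20 (median -0.96) with HDAC7 DP, and fell by 1.74 (SE 0.23, limma adjusted p = 0.000460). Ubash3b, a phosphatase that dampens T cell receptor signalling, ran from -0.03 to 1.16 (median 0.23) and from -1.40 to -0.78 (median -1.10), and fell by 1.58 (SE 0.17, adjusted p = 8.43e-05). Both genes thus ended below untreated cells on all 8 HDAC7 DP arrays. Cytip, a cytohesin-binding protein of leukocytes and the 1 of 13 integrin and adhesion genes called, ran from 0.44 to 1.66 (median 1.16) and from -1.23 to -0.30 (median -0.60), and fell by 1.69 (SE 0.19, adjusted p = 8.51e-05). Gsn, the actin-severing protein gelsolin, fell by 1.69 (SE 0.40, adjusted p = 0.0410) with overlapping groups, and its call was lost in 10 of the 16 fits without 1 array (-1.87 to -1.54) and with the random block (adjusted p = 0.0886).

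In a further group of genes the mean went from above 0.5 with the empty virus to within 0.5 of untreated cells with HDAC7 DP. The BCL6 corepressor gene Bcor ran from 0.79 to 1.89 (median 1.49) and from -0.41 to 0.12 (median -0.15), and fell by 1.53 (SE 0.17, limma adjusted p = 8.51e-05). Its other probe gave -1.64 (adjusted p = 2.01e-05). The prostaglandin E2 receptor gene Ptger4 fell by 1.34 (SE 0.13, adjusted p = 2.88e-05), with groups parted by 0.65. Rassf3, a Ras-association domain gene, fell by 1.33 (SE 0.13) and Lfng, a glycosyltransferase that modifies Notch, by 1.21 (SE 0.15), parted by 0.58 and 0.63. Bpgm, which makes 2,3-bisphosphoglycerate in a side branch of glycolysis, ran from 1.30 to 1.87 (median 1.66) and from -0.07 to 0.38 (median 0.24), and fell by 1.42 (SE 0.10, adjusted p = 1.23e-06). The smallest error of any named gene belonged to Ahsg, the gene of the plasma protein fetuin-A. Its levels ran from 0.95 to 1.32 (median 1.04) and from -0.26 to -0.01 (median -0.10), a fall of 1.19 (SE 0.06, adjusted p = 3.66e-08). The adaptor gene Sh3kbp1 fell by 1.34 (SE 0.17) on its first probe, but with HDAC7 DP the 4 arrays with the sample in Cy5 stood at 0.11 to 0.78 and the 4 with Cy3 at -1.76 to -0.56, and its other probe gave 0.04 (adjusted p = 0.871).

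Fewer probes rose, 9 of them at least 2-fold. The largest called rise, 2.07 (SE 0.24, limma adjusted p = 0.000105), was on a probe with no gene symbol, with groups parted by 0.52. Of the 86 probes called higher, 61 were within 0.5 of untreated cells with the empty virus, and 36 of these 61 stood above 0.5 with HDAC7 DP. Mst1r, a receptor kinase of the MET family, ran from 0.04 to 1.71 (median 0.63) with the empty virus and from 1.31 to 3.83 (median 2.53) with HDAC7 DP. The groups overlapped and the rise was 1.68 (SE 0.40, limma adjusted p = 0.0400), lost in 11 of the 16 fits without 1 array (1.46 to 1.85) and with the random block (adjusted p = 0.0985). Adam8, a surface metalloprotease, ran from -0.23 to 1.30 (median 0.63) and from 1.35 to 2.89 (median 1.81), and rose by 1.47 (SE 0.26, adjusted p = 0.00509). Nt5e, the gene of CD73, which turns AMP into adenosine, ran from 1.42 to 2.41 (median 1.78) and from 2.65 to 4.21 (median 3.22). It was thus induced in both groups and rose by a further 1.41 (SE 0.17, adjusted p = 0.000228), while its other probe, at 0.58, was not called (adjusted p = 0.53). The acyl-CoA synthetase gene Acsbg1 rose by 1.24 (SE 0.19, adjusted p = 0.00161), the calpain gene Capn2 by 0.99 (SE 0.09, adjusted p = 2.14e-05) and Impact, an inhibitor of the GCN2 kinase, by 1.05 (SE 0.15, adjusted p = 0.000775), and on each the groups overlapped by at most 0.08. The chaperone gene Dnajb4 rose by 1.06 (SE 0.25, adjusted p = 0.0410) on its first probe and stood at -0.22 on the other. Its call was lost in 11 of the 16 fits without 1 array (0.92 to 1.19) and with the random block (adjusted p = 0.0937).

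A few of the genes that rose stood below untreated cells in stimulated empty-virus cells. The hexokinase gene Hk2, which carries out the first step of glycolysis, ran from -1.30 to -0.61 (median -1.01) with the empty virus and from -0.14 to 0.47 (median 0.11) with HDAC7 DP. It rose by 1.11 (SE 0.12, limma adjusted p = 8.04e-05) with a gap of 0.47, to a mean of 0.10 that was not called against untreated cells (adjusted p = 0.354). Slc2a1, the glucose transporter GLUT1, moved from -1.06 to -0.30 (median -0.90) to -0.43 to 0.86 (median -0.01) and rose by 0.97 (SE 0.20, adjusted p = 0.0161, and 0.0546 with the random block). Clec4e, the pattern recognition receptor Mincle, rose by 1.21 (SE 0.18, adjusted p = 0.00123) and the collagen gene Col6a3 by 0.93 (SE 0.14, adjusted p = 0.00171), both from below untreated cells on all 8 empty-virus arrays to above them on all 8 with HDAC7 DP. Of 23 glycolysis and hypoxia genes 2 rose (Hk2 and Slc2a1) and 2 fell, the muscle enolase gene Eno3 by 0.89 (SE 0.14, adjusted p = 0.00229) and the angiogenic factor gene Vegfa by 0.52 (SE 0.11, adjusted p = 0.0285), with a median of -0.05. The call of Vegfa was lost in 5 of the 16 fits without 1 array (-0.57 to -0.43) and with the random block (adjusted p = 0.166).

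**Figure D3:**
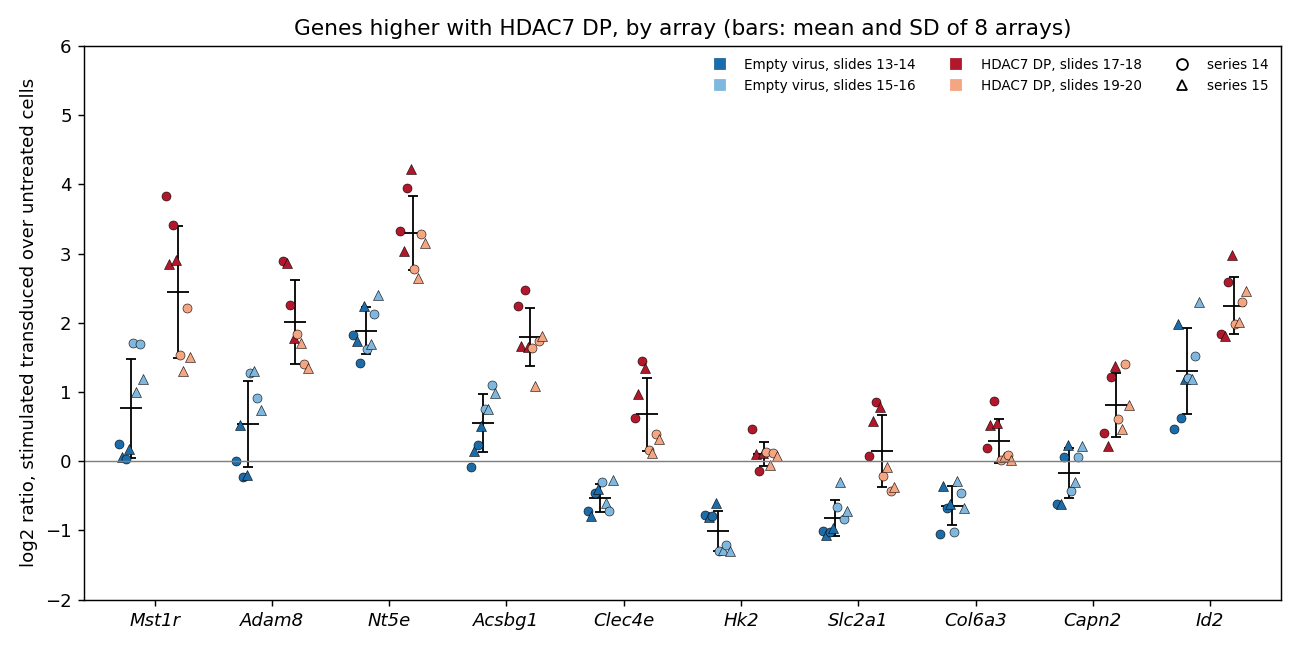
Log2 ratio over untreated cells on each array for 10 genes that rose with HDAC7 DP, coloured dark and light blue for the empty virus (slides 13-14 and 15-16), red and light orange for HDAC7 DP (slides 17-18 and 19-20), and circles for series 14 and triangles for series 15. Black bars give the mean and SD of 8 arrays. Hk2, Clec4e and Col6a3 lay below 0 on all empty-virus arrays, and the 4 arrays of slides 17-18 hold the highest values of Mst1r.

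Other programmes gave few or no calls. Limma called 0 of 42 cell cycle, replication and mitosis genes (median difference 0.04, 8 at an unadjusted p under 0.05) and 0 of 17 nucleolar ribosome biogenesis genes (median 0.08, 1 at that p). It called 0 of 19 integrated stress response genes (median -0.07, 3 at that p), 0 of 13 heat shock chaperones (median -0.03, 1 at that p) and 0 of 13 cholesterol synthesis genes (median -0.17, 4 at that p). Over all probes, 1958 of 16463 reached that unadjusted p. Of 12 glucocorticoid-response genes 1 rose, the thioredoxin inhibitor gene Txnip by 0.47 (SE 0.11, limma adjusted p = 0.0409), and of 18 interferon-response genes 1 rose, Isg15 by 0.70 (SE 0.16, adjusted p = 0.0329). These calls were lost in 14 and in 10 of the 16 fits without 1 array (0.41 to 0.53 for Txnip and 0.61 to 0.80 for Isg15) and with the random block (adjusted p = 0.188 and 0.116). Of 10 T cell markers 1 was called, Cd28. Of 7 B cell, 8 myeloid, 8 fibroblast and packaging cell and 3 erythroid markers limma called 0 (0 at an unadjusted p under 0.05), with medians of 0.03, 0.03, -0.08 and -0.03. The mean level of the T cell markers per array ran from -0.08 to 0.29 with the empty virus and from -0.33 to 0.12 with HDAC7 DP, and that of the myeloid markers from -0.80 to 0.17 and from -0.11 to 0.20. Ratios against the same hybridoma cannot show whether a cell type's markers are absent.

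Slide sets of the same construct also differed. Within the empty virus, 2923 probes were called between slides 15-16 and 13-14 (17.8%), 800 of them at least 2-fold, and within HDAC7 DP 908 between slides 19-20 and 17-18 (5.52%), 216 at least 2-fold. Of the 271 probes called between constructs, 54 were also called between the empty-virus sets, beside 17.8% of all probes. Another count of 14 were also called between the HDAC7 DP sets, beside 5.52% of all probes. The remaining 211 were called in neither, and nothing about the construct is read from that count. These counts come from fits without set differences in the residual and are not comparable with the 271, and with the slide set as a fixed term the construct contrast had 1227 calls. The set means of one construct correlated over probes at 0.47 for the empty virus and 0.67 for HDAC7 DP. Between constructs they correlated at 0.56 (13-14 and 17-18), 0.64 (13-14 and 19-20), 0.80 (15-16 and 17-18) and 0.35 (15-16 and 19-20). Nab1 differed between the empty-virus sets, with means of 1.20 on slides 13-14 and 0.21 on slides 15-16, and Gsn between the HDAC7 DP sets, with means of -0.24 on slides 17-18 and -1.99 on slides 19-20. The part that these sets play in the contrast was not tested, since a set lies within 1 construct.

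Over the 4 pairings of an HDAC7 DP set with an empty-virus set, 4833 of all 16463 probes (29.4%) differed in 1 direction, and all 271 called probes were among them. Since these 271 were called on the same arrays, nothing is read from that count. Sizes differed widely between pairings for strongly induced genes. The difference of Nr4a1 was -0.87 for slides 17-18 against 13-14 and -3.95 for slides 19-20 against 15-16. It was -2.12 for slides 17-18 against 15-16 and -2.70 for slides 19-20 against 13-14. Dusp2 ranged over the 4 pairings from -4.33 to -0.57, Hdac5 from -3.08 to -1.07 and Pdcd1 from -2.96 to -1.71. Cd28 differed from Pdcd1 in which empty-virus set was higher, since its mean was 1.75 on slides 13-14 and 1.15 on slides 15-16, while the HDAC7 DP sets stood at -0.22 and -0.16. The pairings lay close together for Ahsg (-1.23 to -1.15), Ifngr2 (-1.03 to -0.95) and Capn2 (0.92 to 1.06). For Ifngr2 each set mean averages over a wide dye split. With HDAC7 DP its Cy5 arrays stood at -0.54 to 0.72 and its Cy3 arrays at -1.69 to -0.49. Its difference was -1.31 in series 14 and -0.68 in series 15, and its call was lost with no dye term. Among genes not called, Il2 ran from -3.08 to 2.36, Egr1 from -1.45 to 2.14 and Egr2 from -2.75 to 1.12, changing sign between pairings. For slides 17-18 against 15-16 and slides 19-20 against 13-14, Il2 differed by -0.68 and -0.04 and Egr1 by 0.36 and 0.33. Egr2 differed by -1.01 and -0.62 in these pairings. Among the genes that rose, Mst1r ran from 0.24 to 3.12 and Hk2 from 0.82 to 1.41.

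**Figure D4:**
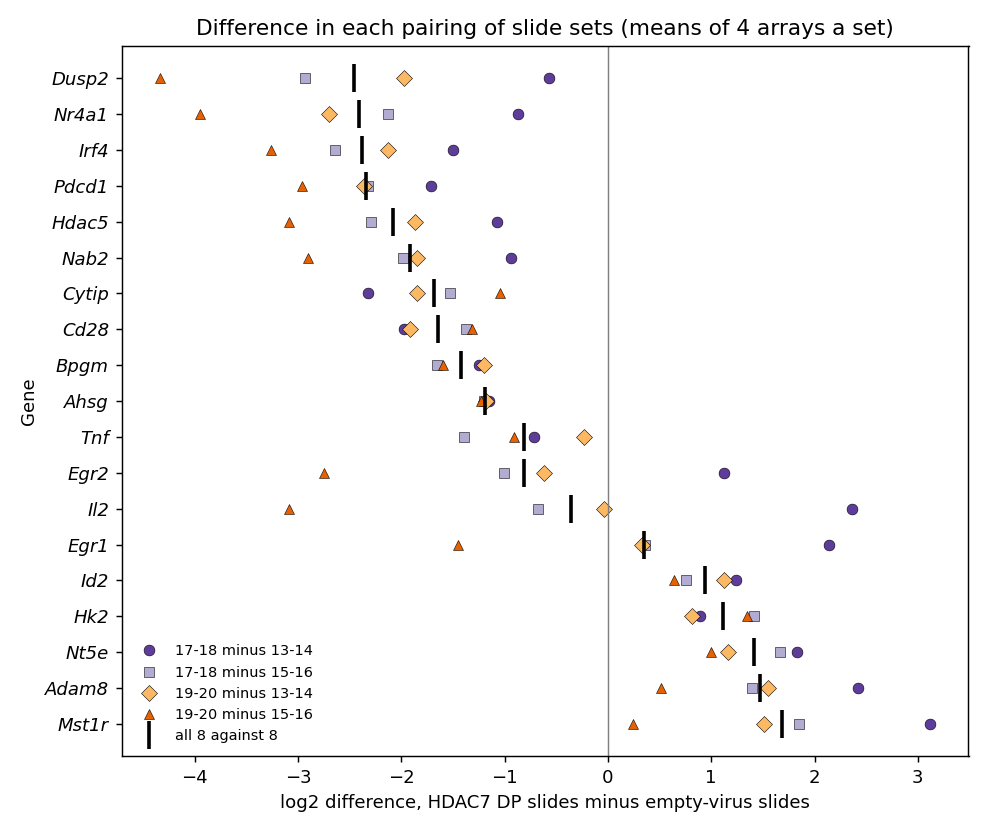
Log2 difference in each of the 4 pairings of an HDAC7 DP slide set with an empty-virus slide set (coloured symbols, means of 4 arrays a set) and in the contrast of 8 against 8 arrays (black line), for 19 named genes. Ahsg and Bpgm lie within a narrow range, whereas Il2, Egr1 and Egr2 fall on both sides of 0.

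The contrast also differed between the slide series at 24 probes (0.146% of 16463, construct by series interaction in limma), all 24 with a higher difference in series 15. Hdac7 led, at 0.17 in series 14 and 4.45 in series 15 (interaction 4.28, SE 0.27, adjusted p = 4.84e-06). The other 23 were of the opposite kind, lower with HDAC7 DP by at least 0.5 in series 14 and within 0.5 of no difference in series 15. Phka1, a subunit of phosphorylase kinase, stood at -2.17 to -1.82 on the 4 HDAC7 DP arrays of series 14 and at -0.75 to -0.32 on those of series 15, beside -0.49 to 0.37 with the empty virus (interaction 1.81, SE 0.21, adjusted p = 0.00551). The valyl-tRNA synthetase gene Vars (1.95, adjusted p = 0.00572), the cyclin-dependent kinase gene Cdk2 (1.95, adjusted p = 0.0153) and the glycolipid transfer protein gene Gltp (1.94, adjusted p = 0.0126) had the same form. Their differences were -1.91, -1.61 and -1.88 in series 14 and 0.04, 0.34 and 0.05 in series 15. For Ide, the insulin-degrading enzyme, the probe with the interaction gave 2.14 (adjusted p = 0.0281), while its other probe, first in the files, showed none (-0.41, adjusted p = 1.00). Of the 24 probes 3 were called in the contrast of all arrays, Phka1 among them, whose call was lost with the random block (adjusted p = 0.250) and in 11 of the 16 fits without 1 array (-1.37 to -1.09). Limma called 192 probes in series 14 alone and 27 in series 15 alone, 10 of them in both. The genes with the largest falls over all arrays were lower in both series, and none had a called interaction. In series 14 and 15, Dusp2 differed by -2.98 and -1.93, Nr4a1 by -2.81 and -2.01, Irf4 by -2.56 and -2.21 and Pdcd1 by -2.18 and -2.50.

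**Figure D5:**
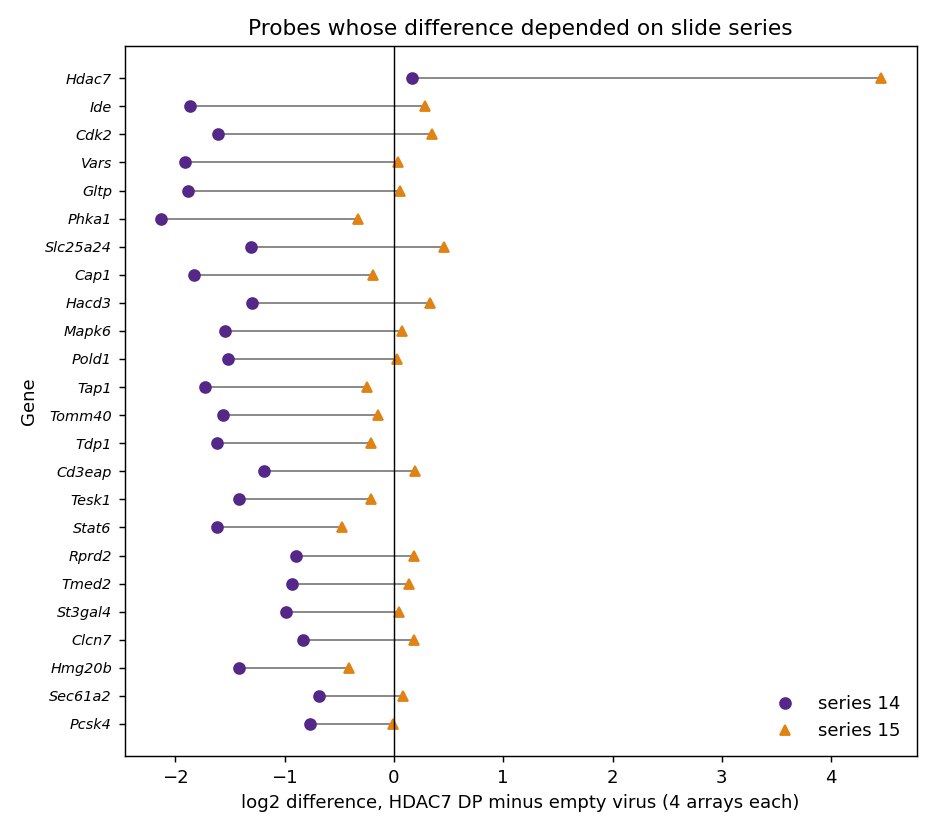
Log2 difference between HDAC7 DP and the empty virus in slide series 14 (circles) and series 15 (triangles), 4 arrays of each construct, for the 24 probes whose difference depended on the series. Hdac7 is at 0.17 in series 14 and 4.45 in series 15, and the other 23 are lower in series 14 and near 0 in series 15.

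The promoters of these genes were searched for the binding motifs of factors that act in this pathway. RefSeq promoters (GRCm38.p6, 250 bases before to 50 after a gene's start) were found for 10489 of 13412 measured genes, 147 of 171 genes called lower and 67 of 81 called higher. The MEF2 consensus on either strand was held by 6 of 147 genes called lower (4.08%), 1 of 67 called higher (1.49%) and 2.55% of measured genes. The MEF2 share was 3.70% of all 27025 genes with a promoter entry. Hdac5 and Atf3, which the gene rule names among these 6, are shown with the 250 bases before their start, followed by Nr4a1, Irf4 and Pdcd1, whose windows hold no MEF2 match. Bases outside the windows were not searched, so a gene without a match here can still hold one farther away. Sequences run 5′ to 3′ along the gene's strand, and capitals mark motif matches, the MEF2 consensus in Hdac5 and Atf3 and the EGR site, on the other strand, in Nr4a1.
Hdac5 (chr11:102230173-102230422, - strand): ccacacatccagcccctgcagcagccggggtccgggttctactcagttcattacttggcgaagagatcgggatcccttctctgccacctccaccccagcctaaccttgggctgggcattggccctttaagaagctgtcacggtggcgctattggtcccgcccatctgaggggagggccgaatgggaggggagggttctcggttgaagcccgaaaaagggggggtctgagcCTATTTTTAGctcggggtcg
Atf3 (chr1:191183334-191183583, - strand): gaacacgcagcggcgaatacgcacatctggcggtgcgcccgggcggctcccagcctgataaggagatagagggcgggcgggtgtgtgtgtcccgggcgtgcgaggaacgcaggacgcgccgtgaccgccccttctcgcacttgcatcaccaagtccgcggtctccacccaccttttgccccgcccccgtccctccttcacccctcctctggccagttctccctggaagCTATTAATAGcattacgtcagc
Nr4a1 (chr15:101266596-101266845, + strand): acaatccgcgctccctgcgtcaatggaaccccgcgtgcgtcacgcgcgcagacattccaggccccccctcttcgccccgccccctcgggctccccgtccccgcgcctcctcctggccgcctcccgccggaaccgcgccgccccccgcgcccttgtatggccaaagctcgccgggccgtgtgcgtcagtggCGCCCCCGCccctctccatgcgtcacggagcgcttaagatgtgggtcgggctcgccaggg
Irf4 (chr13:30748983-30749232, + strand): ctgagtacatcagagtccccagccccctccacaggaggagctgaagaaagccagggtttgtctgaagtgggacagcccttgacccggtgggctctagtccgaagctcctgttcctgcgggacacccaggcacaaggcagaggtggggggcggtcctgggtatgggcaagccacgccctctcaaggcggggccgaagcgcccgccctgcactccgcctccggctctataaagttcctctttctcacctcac
Pdcd1 (chr1:94052554-94052803, - strand): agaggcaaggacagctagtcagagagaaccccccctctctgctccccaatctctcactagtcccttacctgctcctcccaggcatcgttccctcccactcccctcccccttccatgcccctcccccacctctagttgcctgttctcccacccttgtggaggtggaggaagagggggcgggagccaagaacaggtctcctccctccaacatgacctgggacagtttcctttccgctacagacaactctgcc

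In Hdac5 the MEF2 match CTATTTTTAG lies 20 to 11 bases before the start, and in Atf3 the match CTATTAATAG lies 22 to 13 bases before it. The EGR site GCGNGGGCG, the motif of the EGR zinc fingers, was held by 37 of 147 genes called lower (25.2%), 4 of 67 called higher (5.97%), 10.3% of measured genes and 6.27% of all genes with an entry. Promoters of genes called lower were also richer in G and C (median 64.0% against 59.7%), and the motif itself consists mostly of those bases. Within promoters of 60% to 70% GC the share was 14 of 65 genes called lower (21.5%) against 12.4% of measured genes, and from 70% GC upwards 21 of 42 (50%) against 31.1%. Dusp2, Nr4a1, Sh3kbp1, Phka1, Nab1, Gadd45b, Ifngr2 and Bbc3 were the named genes among the 37. The site was also held by Dnajb4, which rose, and by Nr4a2 and Gltp, which were not called. The AP-1 site TGANTCA was held by 6.12% of genes called lower, 13.4% of those called higher, 7.95% of measured genes and 8.97% of all genes with an entry. The cyclic AMP element TGACGTCA was held by 2.72%, 5.97%, 2.98% and 2.03% of these, and the NR4A element AAAGGTCA by 2.72%, 2.99%, 1.52% and 1.70%. These shares are descriptions with no test, and a match is not a shown binding site.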

How the data were processed

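Arrays with 2 colours, each of 16463 probes, measured RNA of stimulated DO11.10 hybridoma cells against untreated cells. Per the labels' protocols, total RNA came from an acid phenol and guanidinium extraction, and aminoallyl cDNA carried Cy3 or Cy5 dye. The deposited values are taken as log2 ratios of the channels. How spots were scanned, corrected and normalized, which log base and direction the ratios have, and whether gaps were filled is not given in the sources used here. Spot intensities were not used, so signal over background is unknown, and the number of arrays limits the precision. Both channels' label fields name Cy3, so dye orientation came from the titles and source names. There were 0 missing values, and array medians lay between -0.009 and 0.023 before centring on the median.

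In R 4.3.3, limma 3.58.1 (linear models with eBayes, and statmod 1.5.0 for the block) took the 16 arrays with a dye term. A call is an adjusted p (Benjamini-Hochberg over all probes) under 0.05, and rose and fell are used of called probes alone. Levels against untreated cells, slide sets within a construct and the construct by series interaction were fitted likewise. The scripts were tested on simulated data. The platform annotation gave 1 symbol to 14551 probes, several to 6 and none to 1906, and 14272 of the first had an Entrez ID in the RefSeq table.

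Named genes were Hdac7, Mef2d and Il2, the 20 lowest and 12 highest called probes with 1 symbol, up to 4 called members per list and direction, all NR4A, EGR, NAB, class IIa and MEF2 genes, the 6 largest interactions and the 10 widest gaps between groups. Where a gene has more than 1 probe, the first in the files stands for it. The members and the 28 lists were chosen with earlier results of these data known. Alternatives covered dye, centring, scaling, slide series and sets, single arrays and the groups fitted.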

Additional observations from a re-analysis of the deposited data

Results flagged for a closer look

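Among 140 groups of 8 arrays tested for a single far value by Dixon's criterion, 2 stood out, where chance gives about 1 in 20 groups. Egr4 on slide 16 of series 14 was the highest of the empty-virus arrays at 0.82, and the next was at 0.38. Hk2 on slide 17 of series 14 was the highest of the HDAC7 DP arrays at 0.47, and the next was at 0.14.

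The difference between HDAC7 DP and the empty virus depended on the slide series, by the construct by series interaction in limma, for 6 named genes. The difference in series 15 minus that in series 14 was 4.28 for Hdac7, 2.14 for a probe of Ide, 1.95 for Cdk2, 1.95 for Vars, 1.94 for Gltp and 1.81 for Phka1. The adjusted p-values from limma ran from 4.84e-06 for Hdac7 to 0.0281 for Ide. Phka1 was called over all arrays as well, and the other 5 were not.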

How the results depend on the processing

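All 54 called named genes kept their direction under each of 36 alternatives. They were called on these same arrays, and several alternatives leave the difference itself unchanged, so nothing is read from that count. Of the 54, 40 kept their call in all 16 fits without 1 array. Those fits called 206 to 323 probes, 58 to 94 higher, 142 to 237 lower and 50 to 70 at least 2-fold, and 11 to 35 interactions. Series 14 alone gave 20 probes higher and 107 at least 2-fold, and series 15 alone gave 27 called, 6 higher, 21 lower and 16 at least 2-fold. With the slide set as a random block 110 were called, 29 higher and 81 lower, and 37 of 54 named genes kept their call. With slide sets averaged, limma called 0, with 0 higher, 0 lower and 0 at least 2-fold (622 at an unadjusted p under 0.05). With dye-swapped arrays averaged it called 49, 9 higher, 40 lower and 27 at least 2-fold, and 18 of 54 named genes kept their call. Cy5 arrays alone gave 8, 1 higher, 7 lower and 5 at least 2-fold, and Cy3 arrays alone 14, 2 higher, 12 lower and 13 at least 2-fold. All 11 groups in 1 fit gave 176 higher. Without slides 13-14 there were 1528 called, 1024 higher, 504 lower and 499 at least 2-fold. Without slides 15-16 there were 156 called and 90 lower, without slides 17-18 169 called and 42 higher, and without slides 19-20 144 called and 82 lower. Of the 54 named genes, 47, 37, 37 and 32 kept their call without slides 13-14, 15-16, 17-18 and 19-20. Nr4a1, Nab2, Arc, Irf8, Lta and Ltb were among those lost without slides 19-20. The slide set as a fixed term, chosen after seeing the data, gave 1227 called, 713 higher and 514 lower. Higher calls outnumbered lower ones in this fit and in the one without slides 13-14. The cause of these changes was not tested, beyond the fewer arrays or values that some of these fits use.

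The interaction count was 10 without the dye term and 14 after quantile normalization. Between slide sets of the empty virus, series 14 alone gave 1753 probes, and with no dye term series 14 gave 973 and series 15 gave 0. Between those of HDAC7 DP, all arrays with no dye term gave 491, series 14 alone 120 and series 15 alone 19, and with no dye term each series gave 0. These series fits have 1 residual degree of freedom with the dye term, and those without it were set beside them after seeing the data. Groups did not overlap for 1041 probes in series 14 and 452 in series 15, from 4 arrays a group, and 27 called probes of series 15 had 1 direction. Il2, Egr1 and Egr2, which were not called, changed sign between slide-set pairings. No paired analysis was possible because the labels carry no replicate numbers that pair arrays of the constructs.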
